A study of Rattus norvegicus with 6 samples.

Results

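The nuclear-encoded genes of the mitochondrial respiratory chain were examined in kidney cortex from 6 male Sprague-Dawley (Crl:CD(SD)) rats. Of these rats, 3 were given corn oil, the vehicle, and 3 were given o-nitroanisole, a nitroaromatic compound, at 400 mg/kg/day, in both groups for 4 weeks. The animals were 5 weeks old when bought, and their age at the first dose is not given in the sources used here. Each rat gave 1 one-colour Agilent array, and the labels call the arrays of a group biological replicates. Members were taken by gene symbol: genes starting with Nduf, Uqcr, Atp5, Cox4, Cox5, Cox6, Cox7 or Cox8, together with the Sdh genes, Cycs and Cyc1, where a probe's RefSeq accession led to that symbol. This gave 84 genes with 150 probes, among 61657 non-control probes. The probe that stands for a gene was chosen by its brightness averaged over the 6 arrays.

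The comparison between the groups was known when these genes were proposed, because symbol families among them (Atp, Cox, Ndufa and Ndufb) had already been seen to lie higher in it. All differences between the groups are therefore given as a description. No p-value is given over the gene list, and nothing is concluded from how many members differ.

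The respiratory chain lies in the inner mitochondrial membrane. Complex I takes electrons from NADH and complex II from succinate, both pass them to ubiquinone, complex III passes them to cytochrome c, and complex IV passes them to oxygen. Complexes I, III and IV pump protons, and complex V, the ATP synthase, uses the proton gradient to make ATP. In renal cortex the proximal tubule holds many mitochondria and relies on oxidative metabolism for sodium and solute transport. Some subunits are encoded by mitochondrial DNA, and those are not analysed here.

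Of the 84 genes, 83 entered the comparison and were well above background on all 6 arrays. Cox8c, a testis isoform of complex IV, was well above background on no array. No member probe was saturated and none carried an outlier spot. The 83 genes comprised 32 of complex I, 4 of complex II, 8 of complex III, 17 of complex IV and 15 of complex V, with 6 assembly factors of complex I (Ndufaf genes) and Cycs, which encodes cytochrome c. Ndufa4 was placed in complex IV, where its protein is now assigned. Not every member is a subunit: Atp5if1 encodes the inhibitory factor of the ATP synthase, and Cox6c-ps1 is a transcribed pseudogene. Cyc1, Cox7a1 and Ndufa4l2 are not analysed here. RefSeq lists pseudogenes for 41 of the 84 genes, up to 8 for Atp5mg, and whether a probe also reads such a copy was not tested.

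Some facts of the whole series bear on every value below. The array's 75th percentile of the processed signal, used as the scale, lay between 904.9 and 1041 units, and 66.4% to 71.5% of its probes, controls aside, stood well above background. All corn oil arrays lay on one slide and all o-nitroanisole arrays on another, so slide and treatment cannot be told apart. All 15 proximal tubule markers were measured above background. Of the 10 markers of the thick ascending limb and distal tubule, 8 had a probe under their symbol and 7 were tested. Slc12a1 and Trpm6 had no such probe, and Pvalb was above background on no array. Levels are log2 processed signal relative to the array's 75th percentile, and a difference is the o-nitroanisole mean less the corn oil mean, given with limma's standard error (SE) and n = 3 per group. In whole tissue, more cells of a mitochondria-rich type and more transcript per cell cannot be told apart.

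With 75th percentile scaling, 80 of the 83 genes were higher in o-nitroanisole and 3 were lower, with a median log2 difference of 0.17. Over all 32428 features tested (genes with a symbol, by 1 probe each, and unnamed probes), the median was 0.03 and 56.0% were higher. Groups did not overlap for 64 of the 83 genes, all higher in o-nitroanisole, where 17.6% of all features were apart in that direction. In the opposite direction 0 members were apart, against 9.56% of all features. No member reached an adjusted p of 0.05 in limma with Benjamini-Hochberg adjustment, nor did any feature (0% called). The lowest adjusted p among members was 0.108, for Ndufb6. At an unadjusted p under 0.05 (limma), 48 members were higher and 0 were lower. Of all 32428 features, 11.8% were higher and 2310 features were lower at that threshold. When limma was run with a variance trend and robust moderation, 8 members were called, all higher, against 1.24% of all features called higher. These were Ndufb6, Ndufv2, Sdhb, Sdhc, Uqcrb, Uqcr11, Atp5pb and Atp5f1a, with adjusted p between 0.0307 and 0.0487 in that fit.

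The size of the difference depended on how the arrays were put on one scale. With quantile scaling, which gives every array the same distribution of signals, the median over the 83 genes was 0.05, with 69 genes higher and 14 lower. Groups did not overlap for 26 genes that were higher (13.2% of all features) and for 2 that were lower (11.5% of all features). The 2 lower ones were Ndufa6 and Ndufb11, accessory subunits of complex I. With cyclic loess scaling, which removes trends with brightness, the median was also 0.05, with 66 genes higher and 17 lower, and 26 were apart and higher (12.5% of all features). With the normexp background correction followed by quantile scaling the median was 0.03, with 56 genes higher and 27 lower.

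**Figure D1:**
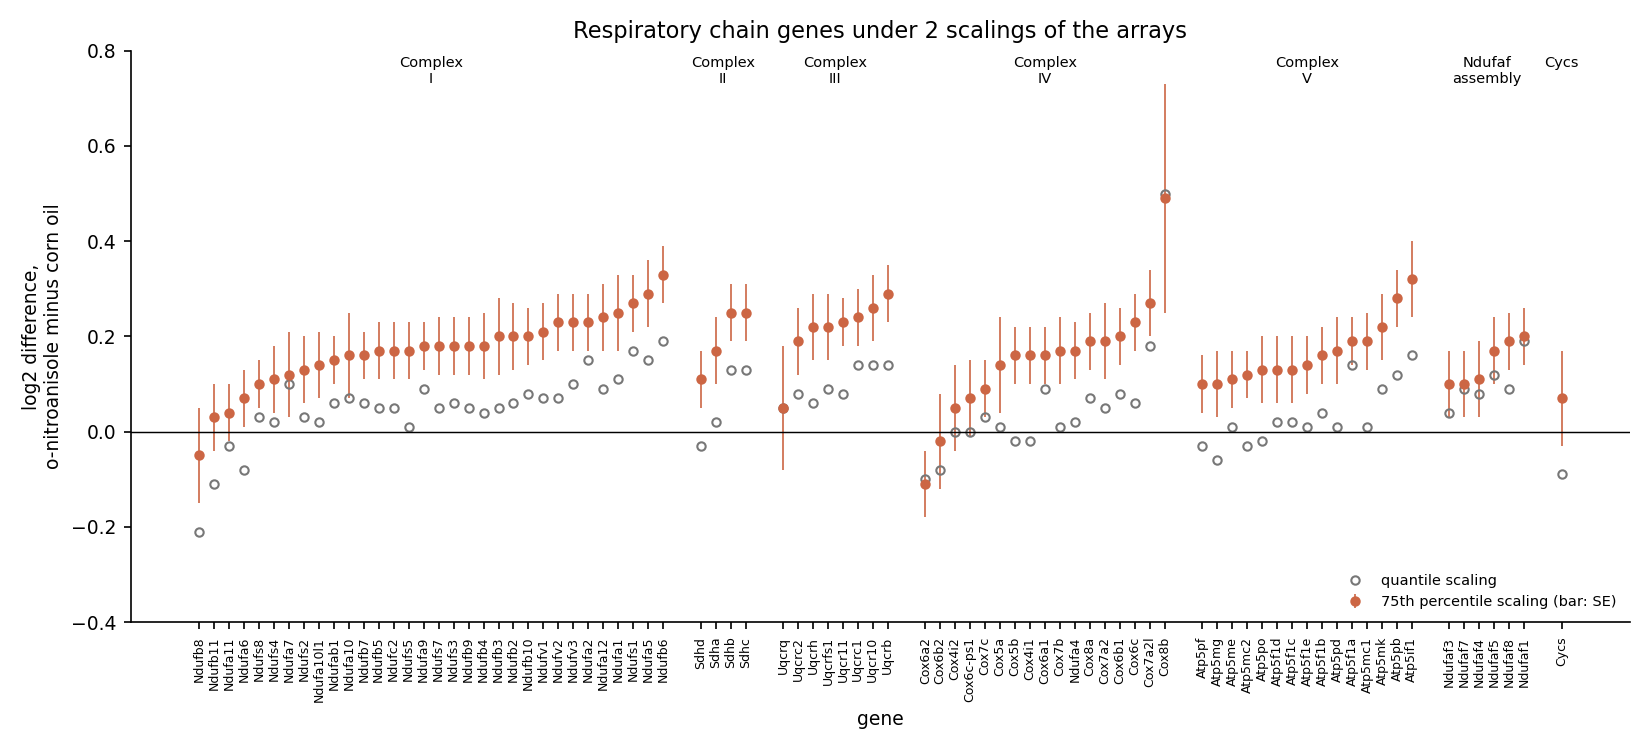
Log2 difference between o-nitroanisole and corn oil for each of the 83 genes tested, grouped by complex and sorted within it. Filled points with SE bars are for 75th percentile scaling and open points for quantile scaling; 80 filled points lie above 0, and most open points lie below their filled partner, with 69 above 0.

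The probes of these genes were bright ones, and bright probes as a whole differed between the groups. Of the 83 genes, 69 fell in the brightest decile of all tested features. With 75th percentile scaling the median difference over all 3243 features of that decile was 0.11, and 46.4% of them were apart and higher. In the middle of the brightness range, in the fifth decile, the median was -0.01 and 11.3% were apart and higher. Among the 69 members in the brightest decile the median was 0.18, and 61 of them (88.4%) were apart and higher. With quantile scaling the brightest decile as a whole had a median of 0.00, with 18.4% apart and higher, and its 69 members had a median of 0.06, with 24 of them (34.8%) apart and higher. The 14 members outside the brightest decile had medians of 0.10 and 0.04 under the 2 scalings. The part of brightness in the members' difference was not tested beyond these values.

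**Figure D2:**
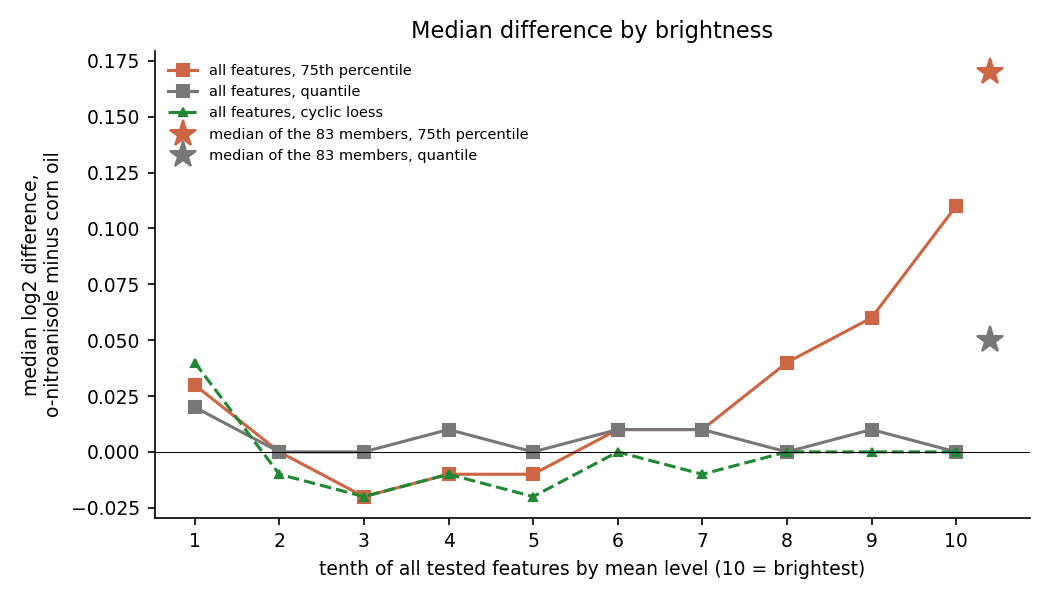
Median log2 difference between o-nitroanisole and corn oil over all tested features, in deciles by mean level from dimmest to brightest, under 3 scalings, with the median of the 83 respiratory chain genes as stars. With 75th percentile scaling the line reaches 0.11 in the brightest decile, while quantile and cyclic loess scaling hold it at 0.00 there; the stars lie at 0.17 and 0.05.

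On single arrays the complexes moved in the same direction with 75th percentile scaling. For each array the median over a complex's genes was taken of their deviation from their corn oil means. For complex I it was 0.00, -0.01 and 0.01 in the corn oil rats and 0.15, 0.17 and 0.21 in the o-nitroanisole rats. For complex II it was -0.04, 0.02 and 0.01 in corn oil and 0.17, 0.22 and 0.22 in o-nitroanisole. Complex III gave -0.03, 0.00 and 0.01 in corn oil and 0.23, 0.21 and 0.25 in o-nitroanisole. Every o-nitroanisole array lay above every corn oil array for these 3 complexes. Complex IV gave 0.03, 0.01 and -0.03 in corn oil and 0.09, 0.17 and 0.20 in o-nitroanisole. Complex V gave 0.02, 0.00 and -0.01 in corn oil and 0.10, 0.14 and 0.19 in o-nitroanisole. For complexes IV and V the groups were also apart, and the first o-nitroanisole rat was the lowest of its group.

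With quantile scaling the difference was smaller in every complex. Complex III stayed apart, at -0.04, 0.02 and 0.02 in corn oil and 0.11, 0.10 and 0.11 in o-nitroanisole. Complex I gave -0.02, 0.00 and 0.01 in corn oil against 0.03, 0.06 and 0.08, also apart. Complex II overlapped, with -0.06, 0.05 and 0.00 against 0.04, 0.10 and 0.07. Complex IV overlapped as well, with 0.00, 0.01 and -0.02 against -0.04, 0.08 and 0.05, and so did complex V, with -0.01, 0.01 and -0.01 against -0.01, 0.02 and 0.06. Differences between complexes were not tested.

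**Figure D3:**
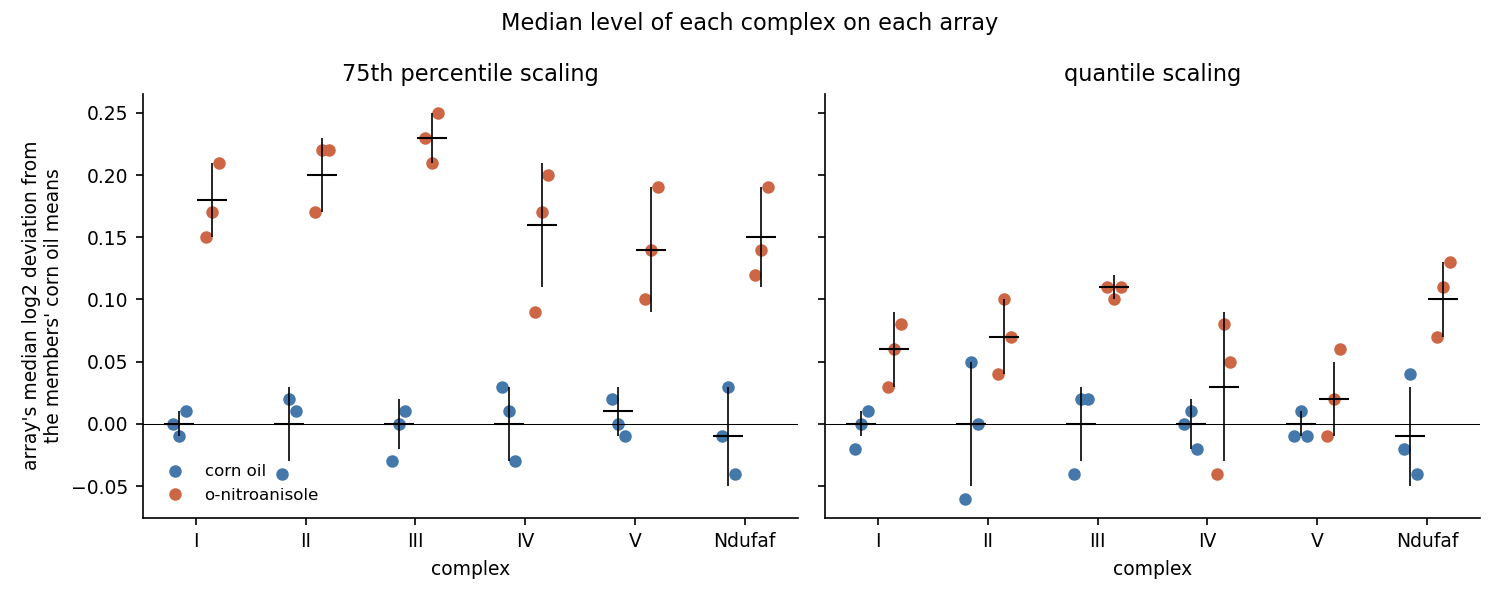
Median log2 deviation of each complex's genes from their corn oil means on each of the 6 arrays, under 75th percentile (left) and quantile scaling (right); points are arrays, dashes group means and bars the SD (n = 3). On the left the groups are apart for all 5 complexes and the Ndufaf genes; on the right complexes II, IV and V overlap.

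Complex I, the NADH dehydrogenase, had a median difference of 0.18 over 32 genes, 31 higher. Of these, 25 were apart and higher (78.1%, against 17.6% of all features and 46.4% of the brightest decile, which holds all but Ndufa7 and Ndufs8). With quantile scaling the median was 0.06, with 28 higher. Then 11 were apart and higher (34.4%, against 13.2% of all features and 18.4% of the brightest decile), and 2 were apart and lower (11.5% of all features). Ndufb6, an accessory subunit of the membrane arm, had the highest value. Its level was 6.02, 5.99 and 6.01 in the corn oil rats and 6.39, 6.28 and 6.34 in the o-nitroanisole rats, a difference of 0.33 ± 0.06 (SE, n = 3 per group), or 25.8%. The 3 o-nitroanisole rats all lay above the corn oil rats, and the difference was 0.19 with quantile scaling, again without overlap, and 0.25 with the normexp correction. Ndufa5, an accessory subunit of the arm that reaches into the matrix, was at 6.66, 6.70 and 6.76 in corn oil and 6.95, 6.95 and 7.10 in o-nitroanisole. Its difference of 0.29 ± 0.07 became 0.15 with quantile scaling, with the groups apart in both.

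The Ndufs and Ndufv genes hold the nuclear core subunits of complex I, with some accessory ones such as Ndufs4, Ndufs5 and Ndufv3. Ndufs1, which carries iron-sulfur clusters, differed by 0.27 ± 0.06, and Ndufv1, which binds the flavin that accepts electrons from NADH, by 0.21 ± 0.06. Ndufs1 was at 4.85, 4.92 and 5.0 in corn oil and 5.19, 5.17 and 5.20 in o-nitroanisole, and it remained apart with quantile scaling (0.17), while Ndufv1 did not (0.07). These 2 genes, and others named below beyond the extremes of each complex and the fixed names, were chosen after their values were seen. Over all 7 Ndufs genes, core or accessory, the median was 0.17 and over all 3 Ndufv genes 0.23, which became 0.03 and 0.07 with quantile scaling.

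The lowest values of complex I belonged to Ndufb8 and Ndufb11, both accessory subunits of the membrane arm. Ndufb8, whose probe was the brightest of complex I, was at 7.53, 7.68 and 7.72 in corn oil and 7.67, 7.68 and 7.42 in o-nitroanisole. The groups overlapped, the third o-nitroanisole rat was the lowest of all, and the difference was -0.05 ± 0.10, or 0.03 without that rat and -0.21 with quantile scaling. Ndufb11 was at 6.12, 6.03 and 6.05 in corn oil and 6.0, 6.16 and 6.14 in o-nitroanisole, a difference of 0.03 ± 0.07. It lay at -0.11 with quantile scaling, where the o-nitroanisole rats were all below the corn oil rats. With cyclic loess scaling the groups overlapped (-0.09), and with the normexp correction the value was 0.13, so its direction changed with the processing.

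The Ndufaf genes encode factors that help to build complex I and are not part of it. All 6 were higher, by 0.10 to 0.20, with a median of 0.14 and 0.09 with quantile scaling. Under either scaling 3 of the 6 were apart and higher, against 17.6% of all features, or 13.2% with quantile scaling. Ndufaf1, which acts on the membrane arm during assembly, had the largest difference. It was at -0.44, -0.41 and -0.38 in corn oil and -0.20, -0.28 and -0.16 in o-nitroanisole, so the groups did not overlap. Its difference of 0.20 ± 0.06 was hardly altered by quantile scaling (0.19), and its probe was one of the few outside the brightest decile.

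Complex II, succinate dehydrogenase, is also an enzyme of the tricarboxylic acid cycle and is wholly encoded by nuclear DNA. Sdhb, the iron-sulfur subunit, was at 5.29, 5.36 and 5.33 in corn oil and 5.54, 5.61 and 5.57 in o-nitroanisole. Sdhc, a membrane anchor, was at 5.30, 5.38 and 5.36 in corn oil and 5.55, 5.62 and 5.61 in o-nitroanisole. Both differed by 0.25 ± 0.06, or 18.6% and 18.5%, and both stayed apart with quantile scaling at 0.13. With the normexp correction they lay at 0.07 and 0.05. Sdha, the flavoprotein that oxidises succinate, was at 6.85, 6.96 and 7.04 in corn oil and 7.09, 7.11 and 7.14 in o-nitroanisole. The other anchor, Sdhd, was at 6.20, 6.20 and 6.21 in corn oil and 6.25, 6.32 and 6.36 in o-nitroanisole. Their differences of 0.17 ± 0.07 and 0.11 ± 0.06 were free of overlap with 75th percentile scaling only. With quantile scaling they were 0.02 and -0.03.

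Complex III, which transfers electrons from ubiquinol to cytochrome c, had a median of 0.23 over 8 genes, all higher. Of these, 7 were apart (87.5%, against 17.6% of all features and 46.4% of the brightest decile, which holds all of them but Uqcrq). With quantile scaling the median was 0.09, all 8 were still higher and 4 were apart. Uqcrb, a small subunit linked to ubiquinone binding, was at 6.93, 6.92 and 6.92 in corn oil and 7.16, 7.24 and 7.24 in o-nitroanisole. The groups did not overlap, with a difference of 0.29 ± 0.06 (22.3%), its 4 probes lay between 0.22 and 0.29, and the value was 0.14 with quantile scaling. With the normexp correction it was -0.01. Uqcr10, another small subunit, whose probe was the brightest of complex III, was at 8.08, 7.93 and 8.07 in corn oil and 8.22, 8.26 and 8.37 in o-nitroanisole, a difference of 0.26 ± 0.07. The core subunits Uqcrc1 and Uqcrc2 differed by 0.24 ± 0.06 and 0.19 ± 0.07, and Uqcrfs1, the Rieske iron-sulfur protein, by 0.22 ± 0.07. Of these 3, only Uqcrc1 stayed apart with quantile scaling, at 0.14. Uqcrq had the lowest value of the complex. It was at -0.46, -0.48 and -0.48 in corn oil and -0.24, -0.33 and -0.70 in o-nitroanisole. The o-nitroanisole rats lay on both sides of the corn oil rats, and the difference was 0.05 ± 0.13, or 0.19 without the third o-nitroanisole rat and -0.04 without the first.

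Cycs, cytochrome c, carries electrons between complexes III and IV. It was at 7.38, 7.11 and 7.30 in corn oil and 7.28, 7.24 and 7.48 in o-nitroanisole. The groups overlapped, with a difference of 0.07 ± 0.10 that was -0.09 with quantile scaling and -0.19 with the normexp correction. Leaving out 1 array gave -0.01 to 0.13. Its 5 probes ranged from -0.14 to 0.07.

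Complex IV, cytochrome c oxidase, had a median of 0.16 over 17 genes, 15 higher. Of these, 10 were apart and higher (58.8%, against 17.6% of all features and 46.4% of the brightest decile). With quantile scaling the median was 0.02, with 13 higher. The 3 genes then apart are 17.6% of the complex, against 13.2% of all features and 18.4% of the brightest decile. Cox4i2, Cox6a2, Cox6b2, Cox6c-ps1, Cox7c and Cox8b lie outside that decile, and none of them was apart under either scaling. The decile's shares therefore describe a set unlike this complex. Several of its subunits come as a pair of isoforms, one found in most tissues and one in muscle, lung or testis. Cox4i1, the widespread isoform of subunit 4, was at 7.52, 7.50 and 7.52 in corn oil and 7.60, 7.71 and 7.72 in o-nitroanisole. Its difference of 0.16 ± 0.06 was without overlap, and it was -0.02 with quantile scaling and 0.02 with the normexp correction. Its partner Cox4i2, known from lung, was at 2.32, 2.47 and 2.30 in corn oil and 2.31, 2.53 and 2.41 in o-nitroanisole, with overlap and a difference of 0.05 ± 0.09.

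Cox6a1, the widespread isoform of subunit 6a, whose probe was the brightest of complex IV, was at 8.50, 8.48 and 8.45 in corn oil and 8.60, 8.64 and 8.68 in o-nitroanisole. Its groups were apart, with a difference of 0.16 ± 0.06, and 0.09 with quantile scaling. With cyclic loess scaling it was -0.01, with overlap, and with the normexp correction 0.00. The heart and muscle isoform Cox6a2 was at -1.26, -1.30 and -1.31 in corn oil and -1.49, -1.30 and -1.41 in o-nitroanisole, with overlap. Its difference was -0.11 ± 0.07, or 0.03 with the normexp correction, and its 3 probes ranged from -0.29 to 0.23. Cox6b1 differed by 0.20 ± 0.06, while its testis isoform Cox6b2, at 3.06, 3.04 and 3.00 in corn oil and 3.03, 3.16 and 2.83 in o-nitroanisole, differed by -0.02 ± 0.10 with overlap, and by -0.10 to 0.07 on leaving out 1 array. With the normexp correction they lay at 0.03 and -0.19. Cox7a2 differed by 0.19 ± 0.08, Cox8a by 0.19 ± 0.06 and Ndufa4 by 0.17 ± 0.06. All 3 were apart, and with quantile scaling they lay at 0.05, 0.07 and 0.02, with Cox8a still apart. With the normexp correction they lay at 0.01, 0.00 and -0.03.

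Cox7a2l, which takes part in joining complexes III and IV into supercomplexes, was at 4.88, 4.92 and 4.83 in corn oil and 5.14, 5.06 and 5.25 in o-nitroanisole. Every o-nitroanisole rat was above every corn oil rat, with a difference of 0.27 ± 0.07, and 0.18 with quantile scaling and 0.13 with the normexp correction. Cox8b, the heart and muscle isoform of subunit 8, had the highest difference of all members at 0.49 ± 0.24. It was at -1.14, -1.17 and -1.24 in corn oil and at -0.51, -0.33 and -1.23 in o-nitroanisole. The first and second o-nitroanisole rats were high and the third was among the corn oil rats, so the groups overlapped. The difference was 0.76 without that rat and 0.31 without the second. Of 7 markers of skeletal and cardiac muscle, 6 were tested, 3 higher and 3 lower. Their summed level was 0.75 to 0.806 in corn oil and 0.581 to 0.767 in o-nitroanisole. Of 5 markers of brown adipose tissue, 3 were tested, 2 higher and 1 lower. Their summed level was 1.32 to 1.57 in corn oil and 1.54 to 1.67 in o-nitroanisole. The part of such tissues in the Cox8b value was not tested.

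Complex V, the ATP synthase, had a median of 0.14 over 15 genes, all higher and all apart, where 17.6% of all features and 46.4% of the brightest decile were apart and higher. For Atp5f1d, Atp5po and Atp5mg the gap was smaller than the rounding: the highest corn oil and lowest o-nitroanisole rat were both at 5.43, 7.77 and 7.29. With quantile scaling the median was 0.01, with 11 higher and 4 lower. The 3 genes then apart are 20.0% of the complex, against 13.2% of all features and near the 18.4% of the brightest decile. Atp5f1a, the alpha subunit of the catalytic head, whose probe was the brightest of the complex, was at 8.63, 8.62 and 8.59 in corn oil and 8.80, 8.79 and 8.82 in o-nitroanisole. The rats of a group lay close together, and the difference was 0.19 ± 0.05 and 0.14 with quantile scaling, but 0.02 with cyclic loess scaling and 0.04 with the normexp correction. Over the 5 genes of the catalytic F1 part the median was 0.14, and 0.02 with quantile scaling. Atp5pb, subunit b of the peripheral stalk, was at 7.51, 7.57 and 7.59 in corn oil and 7.85, 7.78 and 7.88 in o-nitroanisole. Its difference of 0.28 ± 0.06 (21.5%) was 0.12 with quantile scaling, where the groups were still apart, and 0.04 with the normexp correction.

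Atp5if1, the inhibitory factor that blocks ATP hydrolysis by the synthase, had the highest value of complex V. It was at 6.14, 6.13 and 6.22 in corn oil and 6.36, 6.53 and 6.56 in o-nitroanisole, without overlap. The difference was 0.32 ± 0.08 (24.4%), and 0.16 with quantile scaling, again without overlap. With the normexp correction it was 0.00. The lowest values were those of Atp5pf, coupling factor 6 of the stalk, and Atp5mg, subunit g of the membrane part. Atp5pf was at 5.86, 5.83 and 5.83 in corn oil and 5.89, 5.91 and 6.02 in o-nitroanisole. Atp5mg was at 7.26, 7.28 and 7.29 in corn oil and 7.29, 7.37 and 7.47 in o-nitroanisole. Both differed by 0.10, with SEs of 0.06 and 0.07, and lay at -0.03 and -0.06 with quantile scaling and at -0.03 and 0.09 with the normexp correction.

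Other probes of the same genes gave a similar picture with 75th percentile scaling. Of 43 genes with several tested probes, all probes were higher in 36, all were lower in 1 (Cox6b2), and 6 had probes on both sides of 0. Those 6 were Ndufc2, Ndufs4, Cox6a2, Ndufaf4, Ndufaf7 and Cycs. Of the 147 tested probes, 132 were higher, and 114 with quantile scaling. Probes of one gene share the rats and are no replicates.

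The promoters of the members were searched for motifs of factors known to drive nuclear genes of the respiratory chain. A promoter of 250 bases before to 50 bases after the start (RefSeq, GRCr8) was listed for 74 of the 84 genes and for 10135 of all tested genes. The NRF1 motif, searched as GCGCATGCG on both strands, was in 9 members (12.2%), against 2.82% of the promoters of tested genes and 1.52% of all 33469 promoters. The GABPA motif, searched as CCGGAAG, was in 22 members (29.7%, against 15.9% of tested genes and 8.75% of all), among them 5 of 14 in complex V, 3 of 6 in complex III and 6 of 29 in complex I. The YY1 motif, searched as AAGATGGCG, was in 9 members (12.2%, against 3.03% of tested genes and 1.73% of all), 6 of them in complex I. The motif of ERRA, searched as TCAAGGTCA, was in 1 member, Sdhd (1.35%, against 0.207% of tested genes and 0.433% of all). In 0 members did matches of different motifs overlap. Of the 9 members with the NRF1 motif, 4 were in complex V.

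The stretches of 30 bases below show such matches in promoters of members, on the gene's own strand with the motif in capitals, in the searched or the opposite orientation. The first 4 hold the NRF1 motif in Cycs (chr4:80984906-80984935, minus strand) and in the complex V genes Atp5me (chr14:1464774-1464803, plus strand), Atp5mc2 (chr7:135678255-135678284, minus strand) and Atp5po (chr11:44657523-44657552, minus strand). The next 3 hold the GABPA motif in Sdhb (chr5:158547815-158547844, plus strand), Uqcrq (chr10:38089982-38090011, minus strand) and Cox8a (chr1:213833662-213833691, minus strand). The last holds the YY1 motif in Atp5pf (chr11:37375193-37375222, minus strand). All coordinates are on GRCr8, and all windows shown lie before the gene's start. For YY1 that is not typical: the match in Atp5pf begins at position -111 from the start. The YY1 matches in the other members begin between positions -1 and 26.
Cycs: catgctagccCGCATGCGCgcgcaccttgc
Atp5me: ttgcgctacgGCGCATGCGctttcctggct
Atp5mc2: ggctctagtcGCGCATGCGcagagccttct
Atp5po: acgccgacgcGCGCATGCGctctggcatca
Sdhb: tactcgggataCCGGAAGctgccttccact
Uqcrq: ttccgctcctcCCGGAAGtgacgtgcaaag
Cox8a: tttccgaaataCTTCCGGgctgaggcgtct
Atp5pf: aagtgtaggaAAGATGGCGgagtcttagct
A match is a run of letters and not a shown binding site. Cycs, with overlapping groups, and Sdhb, with groups apart under both scalings, both hold one.

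The regulators of mitochondrial biogenesis did not move as one. Of 22 tested, 14 were higher and 8 lower, with a median of 0.12 and 0.08 with quantile scaling, and 0 passed the adjusted threshold, as for every list below. With 75th percentile scaling 10 were apart and higher, against 17.6% of all features, and 4 were apart and lower, against 9.56% of all features. Ppargc1a, the coactivator PGC-1alpha that drives many respiratory chain genes, was at -0.45, -0.35 and -0.52 in corn oil and -0.69, -0.72 and -0.66 in o-nitroanisole. The o-nitroanisole rats were all below the corn oil rats, and the difference was -0.25 ± 0.07 (adjusted p = 0.156, limma), the same size with quantile and cyclic loess scaling. Nrf1 differed by -0.06 ± 0.07, Gabpa by 0.09 ± 0.06, Esrra by 0.16 ± 0.07 and Tfam, which packages and transcribes mitochondrial DNA, by 0.18 ± 0.06. The groups overlapped for Nrf1, while for Gabpa, Esrra and Tfam the o-nitroanisole rats were all above the corn oil rats. Yy1 differed by -0.29 ± 0.09 and Ppargc1b, a relative of Ppargc1a, by -0.41 ± 0.14, both with the o-nitroanisole rats all below the corn oil rats. These genes were picked after their values were seen. Ppara, a receptor that turns on fatty acid oxidation, differed by 0.82 ± 0.46, with levels of -1.11, 0.22 and -0.17 in corn oil and 1.12, -0.18 and 0.47 in o-nitroanisole that overlapped. The difference was 0.44 without the first corn oil rat and 0.50 without the first o-nitroanisole rat. Its relative Ppard, named after its values were seen, differed as much the other way, by -0.82 ± 0.20. It was at -1.61, -2.32 and -1.66 in corn oil and -2.60, -2.78 and -2.67 in o-nitroanisole, without overlap.

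Other mitochondrial lists lay near the respiratory chain genes. All 18 genes of the tricarboxylic acid cycle list were higher, with a median of 0.21. With quantile scaling the median was 0.10, with 15 higher. Besides enzymes of the cycle, the list held Pdha1, Pdhb, Dlat and Pc, which belong to pyruvate metabolism. Cs, citrate synthase, had the largest value there, at 3.20, 3.23 and 3.23 in corn oil and 3.46, 3.49 and 3.64 in o-nitroanisole, a difference of 0.31 ± 0.07 and 0.24 with quantile scaling. Further assembly factors of the complexes had a median of 0.16 over 34 genes, 31 higher, led by Uqcc3 of complex III assembly at 0.28 ± 0.08 (0.09 with the normexp correction). With quantile scaling their median was 0.09, with 27 higher. Carriers and pores had a median of 0.14 over 17 genes, 16 higher, and 0.07 with quantile scaling, with 11 higher. Slc25a10, the dicarboxylate carrier, was at 4.63, 4.95 and 4.93 in corn oil and 5.41, 5.30 and 5.48 in o-nitroanisole, a difference of 0.56 ± 0.11. Genes of coenzyme Q and cytochrome c synthesis had a median of 0.14 over 13 genes, 12 higher, and 0.12 with quantile scaling, with 10 higher, and with Coq10a at 0.33 ± 0.10. The protein stress list had a median of 0.10 over 12 genes, 8 higher, and 0.02 with quantile scaling, with Gdf15, a stress-induced secreted factor, at 0.58 ± 0.25. Gdf15 was at -0.34, -0.74 and 0.20 in corn oil and 0.31, 0.45 and 0.11 in o-nitroanisole, with overlap, and its difference was 0.36 without the second corn oil rat.

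The values were not limited to mitochondrial genes. The vacuolar proton pump of intercalated cells and lysosomes had a median of 0.20 over 21 genes, 20 higher, and 0.13 with quantile scaling, with Atp6v0d2 at 0.49 ± 0.09. Of these genes, 3 (Atp6v0d2, Atp6v1b1 and Atp6v1g3) also count among the intercalated cell markers. Glycolysis, which runs in the cytosol, had a median of 0.19 over 17 genes, 13 higher, and 0.05 with quantile scaling, with the lactate dehydrogenase Ldhb at 0.38 ± 0.10.

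**Figure D4:**
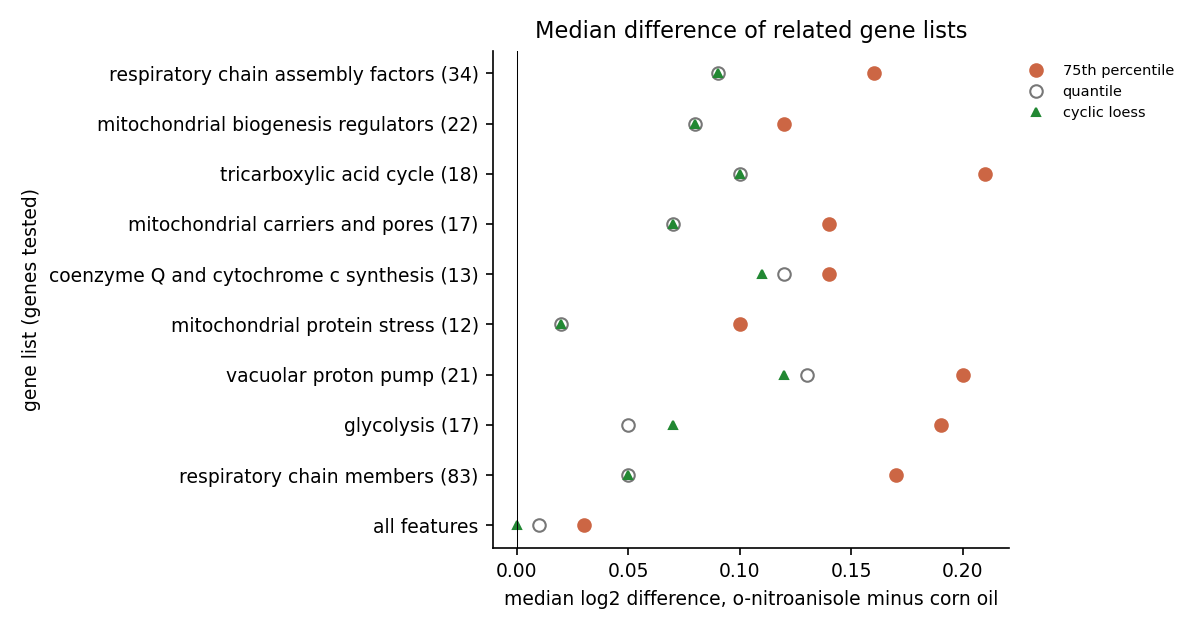
Median log2 difference between o-nitroanisole and corn oil for each related gene list, the 83 respiratory chain genes and all features, under 3 scalings; the number of genes tested is in parentheses. Every list lies above the all-feature median of 0.03 with 75th percentile scaling, the respiratory chain genes at 0.17 and glycolysis at 0.19, and each lies nearer to 0 with quantile scaling.

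Markers of some cell types differed between the groups as well, in unlike ways. Of 15 proximal tubule markers, 10 were higher and 5 lower, with a median of 0.20 (0.09 with quantile scaling). Their summed level was 2860 to 2890 in corn oil and 3110 to 3120 in o-nitroanisole. All summed levels given are of unlogged values under 75th percentile scaling only, so the brightest markers weigh most. With that scaling the brightest decile of all features had a median difference of 0.11. All 8 markers of intercalated cells of the collecting duct were higher, with a median of 0.42 (0.31 with quantile scaling), and their summed level was 136 to 160 in corn oil and 181 to 203 in o-nitroanisole. Of these 8, Slc4a1 (0.67 ± 0.17) also counts among the red blood cell markers. The thick ascending limb and distal tubule, also rich in mitochondria, had 4 of 7 tested markers higher and a median of 0.03 (-0.07 with quantile scaling). Their summed level was 674 to 709 in corn oil and 656 to 678 in o-nitroanisole. All 6 tested markers of red blood cells, which lack mitochondria when mature, were higher, with a median of 0.86 and summed levels of 429 to 499 and 669 to 818, and Rhag was above background on no array. The median was 0.02 for endothelium (3 of 6 tested markers higher), 0.07 for podocytes (4 of 6) and -0.03 for macrophages (1 of 5). For lymphocytes it was 0.15 (2 of 4) and for principal cells of the collecting duct 0.26 (4 of 7). The part of these cell types in the respiratory chain values was not tested.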

How the data were processed

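Total RNA of renal cortex from 6 rats was measured on 1-colour Agilent arrays. The deposited processed signal is an intensity made by Agilent Feature Extraction 10.7.1.1, per the file headers (10.7 in the submitters' processing notes), background-subtracted and detrended array by array and not put on a common scale. A further deposited table gives a ratio for each probe, its processed signal over the 75th percentile of its array. For 100% of probes above background it matched the scanner files within 1%, but its corn oil columns matched those of other replicate numbers, so which corn oil rat bears which number is unknown; each array's group is the same in both.

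Processed signals were divided by the 75th percentile of their array and taken to log2, with outlier spots left out. Probes were tested (41096) if all arrays of 1 group or of both held them well above background, without 84 spike-in probes, which gave 32428 features. Of 33356 accession-bearing probes, 27460 matched a symbol in a GRCr8 gene table. The test was limma's (lmFit and eBayes, version 3.58.1, R 4.3.3), with Benjamini-Hochberg adjustment over all features at 0.05; it was also run on simulated data. Python 3.11.15 with pandas 2.3.3 made the tables, and matplotlib 3.10.9 the plots. The precision is limited by 3 arrays per group. Alternatives were other scalings, normexp background correction (offset 50, on the median signal), filters, probe averaging, trend and robust moderation, the value table, a replicate block and leaving out arrays. Genes were named by rule: per complex the member with the brightest probe and those with the 2 highest and 2 lowest differences, the Sdh genes, Cycs, isoform pairs, Ndufa4, Atp5if1, and the largest difference among the Ndufaf genes and in each pathway list. The members and lists were chosen with earlier results of these data known.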

Additional observations from a re-analysis of the deposited data

How the results depend on the processing

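The medians kept their sign, and moved within the spread between arrays, under median scaling, without a dim filter, with detection on all 6 arrays, with outlier spots kept, with probes averaged, with the value table and with other assignments of members to complexes. Quantile scaling gave 0.06, 0.07, 0.09, 0.02 and 0.01 for complexes I to V and 0.05 for all members, and cyclic loess scaling 0.06, 0.08, 0.10, 0.02, 0.02 and 0.05. The normexp correction, followed by quantile scaling, gave 0.04, 0.04, 0.04, 0.00, 0.03 and 0.03. When single arrays were left out, the median was 0.15 to 0.19 for complex I, 0.17 to 0.23 for II, 0.21 to 0.25 for III, 0.14 to 0.20 for IV, 0.13 to 0.17 for V and 0.15 to 0.19 for all members. The count of features past the threshold was 0, but 90 with the normexp correction, 522 with trend and robust moderation (8 of them members) and 0 to 8 on leaving out 1 array, with 0 members in each such fit. The replicate block called 0 features and left the difference of all members at 0.17. Replicate numbers were not taken as pairs. The deviations of same-numbered arrays correlated at 0.0911, 0.0584 and 0.0257, and those of differently numbered arrays at -0.0969 to 0.0337. These values cannot decide on pairing, because which corn oil rat bears which number is unknown. No slide block could be fitted, because each slide held 1 group. Of the 38 named genes, 26 moved beyond the spread between arrays with quantile scaling and 6 changed sign. The scalings of the list medians were added after seeing the data. By construction, quantile and cyclic loess scaling remove a trend with brightness, whatever its source; the cause of the other moves was not tested.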
